A study of Mus musculus with 4 samples.

Results

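Lpl, Cd36 and 8 further genes of lipid uptake, storage and sensing were followed in tumour-infiltrating myeloid cells from EpiKO and WT tumours. The 10 genes were chosen by symbol from a table of 23420 genes, and all 10 were present and passed the filter on low values that left 12463 genes for testing. Flow cytometry had sorted cells positive for the myeloid integrin CD11b and for CD200R1, which binds the surface protein CD200, out of orthotopic cutaneous squamous cell carcinomas (cSCC) of FVB/N mice. EpiKO tumours (K14Cre;CD200fl/fl) lack CD200 on the tumour cells, because a Cre recombinase under the keratin 14 promoter deletes floxed Cd200 in the epidermis, and WT tumours carry it. There were 2 EpiKO and 2 WT libraries, numbered in sample order, and the age of the mice is not stated in the labels. Whether each library is 1 mouse or a pool is not stated either, so every p-value measures the spread between these libraries alone, which may be technical. The labels name no batch.

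Macrophages take up fatty acids and lipoproteins through a chain of proteins. Lipoprotein lipase, encoded by Lpl, frees fatty acids from triglyceride-rich lipoproteins with the help of its cofactor apolipoprotein C-II (Apoc2). CD36 brings fatty acids and oxidised lipoproteins into the cell, the fatty acid binding proteins FABP4 and FABP5 carry them, and perilipin 2 (Plin2) coats the droplets that store them. The nuclear receptors PPARG and LXR alpha (Nr1h3) sense lipids and switch on many of these genes, apolipoprotein E (Apoe) carries cholesterol out, and the tetraspanin CD9 marks lipid-laden macrophages in several tissues.

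Promoter sequences are shown for Cd36 and Apoc2, in which the groups did not overlap, and for Apoe, which lies in the same gene cluster as Apoc2. Nr1h3, whose groups did not overlap either, is not shown because annotated exons of its own reach the start of both its windows. The sequences are the bases just upstream of a RefSeq start site (GRCm38.p6, the assembly of mm10), on the gene's own strand, cut where an annotated exon begins. For Cd36 this start site lies inside the annotated gene, which spans 17781690 to 17888801 on the minus strand. Its window is thus that of an internal start. Capitals mark the nuclear receptor hexamer AGGTCA on either strand, the CCAAT box and the GC box GGGCGG.
Cd36, chr5:17835897-17836146, minus strand: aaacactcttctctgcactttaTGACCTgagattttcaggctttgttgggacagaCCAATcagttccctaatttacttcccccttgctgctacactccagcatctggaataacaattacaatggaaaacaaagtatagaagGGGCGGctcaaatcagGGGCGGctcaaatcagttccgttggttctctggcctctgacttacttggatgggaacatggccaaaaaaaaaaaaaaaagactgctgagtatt
Apoc2, chr7:19677942-19678082, minus strand: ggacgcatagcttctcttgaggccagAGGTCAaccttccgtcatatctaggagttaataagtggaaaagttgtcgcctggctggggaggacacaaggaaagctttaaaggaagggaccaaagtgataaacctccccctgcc
Apoe, chr7:19699189-19699438, minus strand: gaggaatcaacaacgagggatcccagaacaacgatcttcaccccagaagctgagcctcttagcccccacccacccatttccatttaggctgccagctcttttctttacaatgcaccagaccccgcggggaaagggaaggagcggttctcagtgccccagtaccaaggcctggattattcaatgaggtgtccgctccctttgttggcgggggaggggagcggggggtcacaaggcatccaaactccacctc

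RefSeq windows of 250 bases upstream were matched for 7 of the 10 members, 12 windows in all, and not for Lpl, Fabp4 and Fabp5. The 12 are not independent, since windows of the same gene can overlap, as those of Nr1h3 do. The hexamer AGGTCA is the core of the sites that PPARG and LXR bind. It was found in 5 of the 12 windows, against 14% of 32851 windows of all genes. The 5 windows came from 4 of the 7 members, and no share per gene was taken for comparison. The hexamer stood at bases -228 to -223 of the Cd36 window on the opposite strand and at -218 to -213 of Plin2 on the opposite strand. It also stood at -115 to -110 of Apoc2, and in 2 of the 3 windows of Pparg. No window of a member held the hexamer directly repeated with 1 base between (DR1, found in 0.0335% of all windows) or with 4 bases between (DR4, 0.0152%). Also searched on both strands were TGANTCA (AP-1, in 6.75% of all windows), CACGTG (E-box, 6.02%), GAGGAAGT (PU.1, 2.44%), CCAAT (33.8%), TATAAA (12.4%) and GGGCGG (32.7%). AP-1, E-box and PU.1 letters were in no window of a member. A TATAAA may overlap its own match on the other strand, as it does in 1 window of Apoe, and the other motifs were counted wherever they began. These matches describe the letters and say nothing of binding in these cells.

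Libraries held 15884132 to 21244158 gene-assigned reads. Macrophage markers were abundant in all 4 libraries, and the 10 of them summed to 310970 and 406120 normalised read counts in EpiKO and to 373720 and 320710 in WT. Of the 10, 4 were higher in EpiKO without overlap and 0 lower, against 23.3% and 23.8% of all tested genes. Csf1r, the macrophage growth factor receptor, was at 45316 to 70480, and Itgam, which encodes CD11b, at 26151 to 40692. Cd200r1, the gene of the other sorted marker, was at 1101 and 612 in EpiKO and at 318 and 293 in WT. Its log2FC (log2 fold change, EpiKO over WT) was 1.43 (SE 0.293), at an adjusted p of 0.115 by limma. Cd200 stood at 17.2 and 15.1 in EpiKO and at 92.7 and 59.7 in WT, but the sorted cells are not those in which K14Cre acts, so this does not check the labels. Of the adipocyte markers, Adipoq, Lep and Cidec were at or below 1 read in every library and the 10 markers together came almost wholly from Lipe, a lipase that macrophages also express. Summed sebocyte markers were at 1.08 and 3.78 in EpiKO and at 24.3 and 10.1 in WT, and endothelial markers at 291 and 333 in EpiKO and 356 and 270 in WT. Keratinocyte markers summed to 44.1 and 51.0 in EpiKO and to 5054 and 109 in WT, so WT replicate 1 stood apart. Neutrophil markers summed to 254 and 262 in EpiKO and to 166 and 1444 in WT, so WT replicate 2 stood apart in these. Fibroblast markers were between 21047 and 33752 and overlapped between the groups, mast cell markers ranged from 19.8 to 289, and lymphocyte markers reached at most 15.1. Cd207, the langerin gene of Langerhans cells, was at 23.7 and 23.6 in EpiKO and at 1201 and 590 in WT. Cdh1, the E-cadherin gene that these cells also use, was at 4437 and 685 in EpiKO and at 547 and 361 in WT, and Epcam was at most 7.57 outside WT replicate 1. Xist, the RNA of the inactive X chromosome, picked with its values known, was at 1228 and 1510 in EpiKO and at 522 and 361 in WT. The part of Cd207, Xist or any marker in the results below was not tested.

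Of the 10 members none passed the test over all genes (limma, Benjamini-Hochberg adjusted p under 0.05), where 0.947% of all tested genes did. At an unadjusted p under 0.05 there were 4 members, Lpl, Cd36, Apoc2 and Nr1h3, against 15.6% of all tested genes. edgeR on the recovered reads also called none, against 0.963% of genes, whereas DESeq2 called the same 4, 1 higher and 3 lower, against 6.85% of genes, 3.73% higher and 3.12% lower. At an adjusted p under 0.1 by limma, 3 members passed, Lpl, Apoc2 and Nr1h3, against 3.43% of genes. In Lpl, Cd36, Apoc2 and Nr1h3 the groups did not overlap, Apoc2 being higher in EpiKO and the other three lower, and non-overlap held for 47.1% of tested genes, 23.3% with EpiKO higher and 23.8% with EpiKO lower. The median log2 fold change (log2FC, EpiKO over WT) was -0.17 over the members and -0.0021 over all tested genes. In sorted bulk samples, fewer cells of a type and less RNA per cell cannot be told apart.

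**Figure D1:**
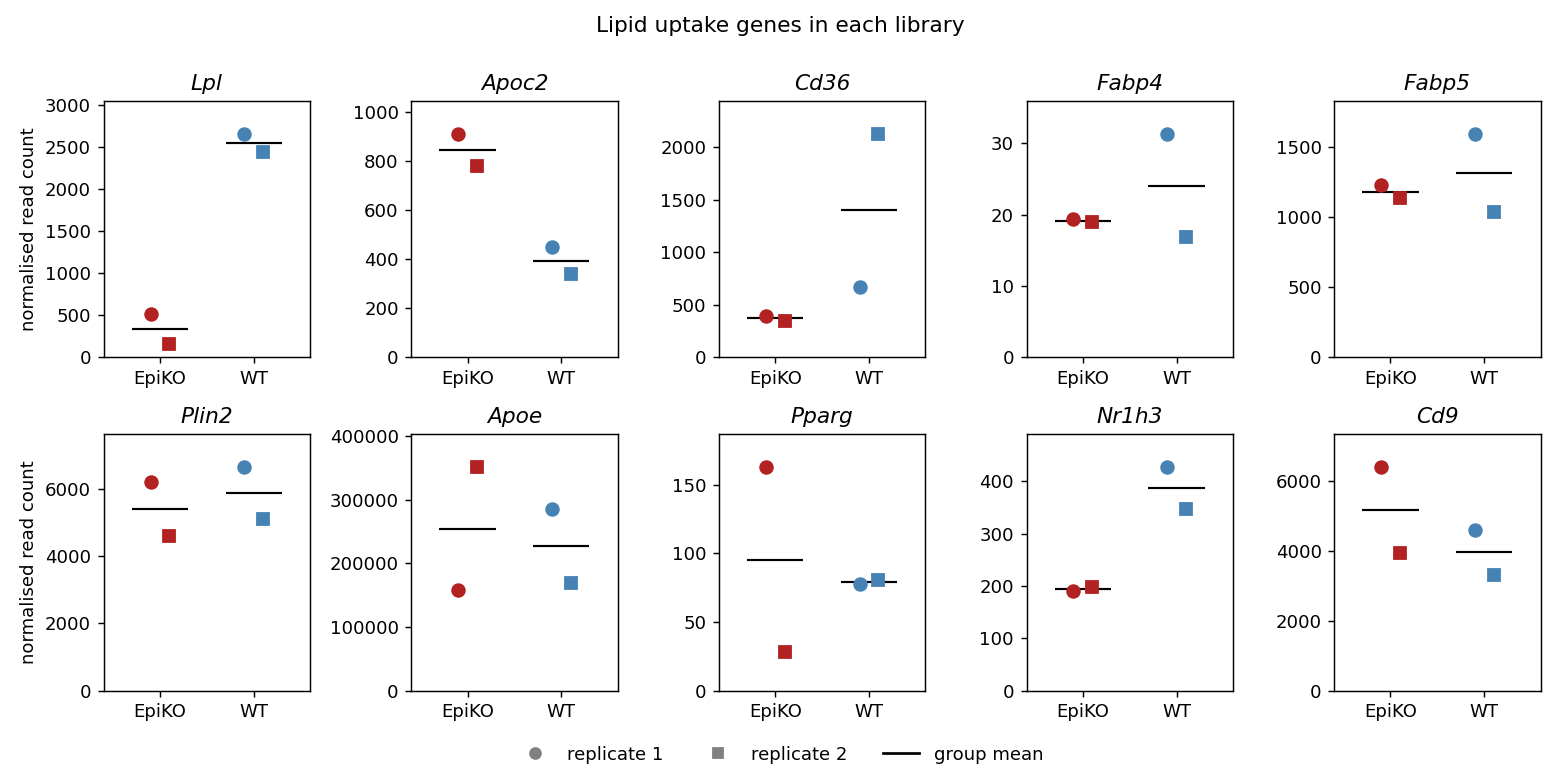
Normalised read counts of the 10 genes in each library, with EpiKO left of WT, a circle for replicate 1, a square for replicate 2 and a line at the group mean; each panel has its own axis from 0. The EpiKO points lie below the WT points for Lpl, Cd36 and Nr1h3 and above them for Apoc2, and the groups overlap in the other 6 genes.

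Lpl (mm10, chromosome 8, from 68880491 to 68907448, plus strand) had normalised read counts of 520 and 162 in EpiKO and of 2660 and 2442 in WT. Both EpiKO libraries lay far below both WT libraries, and the EpiKO libraries themselves differed by 3.22 times. The means were 341 ± 253 in EpiKO and 2551 ± 154 in WT (SD, n = 2 each), 7.49 times lower in EpiKO. The log2FC was -3.13 (SE 0.546), which ranked 109 of 12463 genes by size, at an adjusted p of 0.0854 by limma. The size of the difference depended on the EpiKO library: it was -3.97 without EpiKO replicate 1 and -2.29 without EpiKO replicate 2. Without WT replicate 1 it was -3.07 and without WT replicate 2 it was -3.19. In these fits the group with 1 library left borrowed its spread from the other, so only the sizes are given here. DESeq2 gave -2.90 at an adjusted p of 0.00358. Lpl shares no exon with another annotated gene.

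Apoc2, the cofactor that activates lipoprotein lipase, had the opposite sign. It lies on chromosome 7 from 19671579 to 19677941 on the minus strand and had 912 and 782 normalised read counts in EpiKO and 451 and 339 in WT. Both EpiKO libraries were above both WT libraries, at means of 847 ± 92.1 in EpiKO and 395 ± 79.3 in WT (SD, n = 2 each). The log2FC was 1.11 (SE 0.181), at an adjusted p of 0.0726 by limma and 0.000276 by DESeq2, and between 0.90 and 1.31 with any 1 library left out, where the adjusted p by limma was 0.155 to 0.259. Apoc2 shares exon sequence with Gm44805, an annotated gene on the same strand, and how reads of shared sequence were assigned is not stated. Apoc4, which lies next to it and was picked with its values known, was low and overlapped between the groups, at 6.46 and 19.8 in EpiKO and 40.6 and 6.72 in WT.

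Other genes of extracellular lipolysis were measured beside this pair. Of 12 tested genes of the list, which include Lpl and Apoc2, limma called 1 lower and none higher. DESeq2 called 2 lower, Lpl and Pltp, and 2 higher, Apoc2 and Angptl4. The median log2FC was -0.041, both over the 12 and over the 10 that are not members. For this list and those below, the shares over all tested genes were 0.947% by limma, 6.85% by DESeq2 and 15.6% at an unadjusted p under 0.05 by limma. Pltp, the phospholipid transfer protein of plasma lipoproteins and an LXR target, was at 3556 and 4688 normalised read counts in EpiKO and at 12516 and 14545 in WT. It fell by 1.72 log2 units (SE 0.177), at an adjusted p of 0.0381 by limma, and leaving out any 1 library kept its log2FC between -1.92 and -1.53 but raised the adjusted p by limma to between 0.0717 and 0.198. Angptl4, a secreted inhibitor of lipoprotein lipase, had values of 143 and 101 in EpiKO and of 48.7 and 32.8 in WT, without overlap. Its log2FC was 1.57 (SE 0.333) at an adjusted p of 0.115 by limma and 0.0115 by DESeq2. Sort1, the sorting receptor sortilin, was at 1551 and 366 in EpiKO and at 105 and 248 in WT (log2FC 2.21, SE 0.779, adjusted p = 0.276 by limma), and the endothelial lipase gene Lipg had a log2FC of 0.85 (SE 0.387). Gpihbp1, which anchors the lipase on capillary endothelium and was picked with its values known, was near the floor everywhere, at 1.68 to 6.95.

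Cd36 encodes the scavenger receptor and fatty acid translocase and lies on chromosome 5 from 17781690 to 17888801 on the minus strand. It had 392 and 346 normalised read counts in EpiKO and 672 and 2125 in WT. The EpiKO libraries were close to each other, while the WT libraries differed by 3.16 times and WT replicate 2 held the highest value. The means were 369 ± 32.5 in EpiKO and 1399 ± 1027 in WT (SD, n = 2 each), and the log2FC was -1.70 (SE 0.541, adjusted p = 0.239 by limma). Without WT replicate 2 it was -0.87 (adjusted p = 0.268 by limma) and without WT replicate 1 it was -2.53 (adjusted p = 0.130 by limma), so the size of the difference rests on 1 WT library. The adjusted p by limma reached 0.463 with an EpiKO library left out. The library with the most Cd36 was also the one with the most neutrophil transcripts, S100a9 standing at 38.8 and 117 in EpiKO and at 64.9 and 737 in WT, and their part in the result was not tested.

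Among lipid and lipoprotein receptors Cd36 stood apart in direction from most of the list. Of 11 tested genes none was called, 8 had a positive log2FC and the median was 0.34; 2 had an unadjusted p under 0.05, edgeR called none of them, and DESeq2 called Cd36 lower and Olr1 higher. Olr1, the receptor for oxidised low-density lipoprotein, was at 322 and 167 in EpiKO and at 67.2 and 91.6 in WT (log2FC 1.55, SE 0.374, adjusted p = 0.148 by limma). Msr1, the class A scavenger receptor, was far more abundant, at 36861 and 26019 in EpiKO and 22891 and 24283 in WT, with a log2FC of 0.39 (SE 0.201). Trem2, a lipid-sensing receptor of macrophages, had a log2FC of -0.23 (SE 0.141).

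Fabp4 and Fabp5 encode related fatty acid binding proteins and lie in one cluster on chromosome 3, Fabp4 from 10204088 to 10208576 and Fabp5 from 10012548 to 10016607. Fabp4, which PPARG strongly induces in adipocytes and in cultured macrophages, had only 18 and 20 reads in EpiKO and 27 and 20 in WT, and 6.78% of tested genes had a lower mean. Its normalised read counts of 19.4 and 18.9 in EpiKO lay between the WT values of 31.3 and 16.8 (log2FC -0.25, SE 0.464). Fabp5 was at 1224 and 1134 in EpiKO and at 1590 and 1033 in WT, so the WT libraries enclosed the EpiKO ones here too (log2FC -0.12, SE 0.222). Both were at an adjusted p of 0.861 by limma, and both signs turned without WT replicate 1, to 0.18 for Fabp4 and 0.19 for Fabp5.

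The list of fatty acid transport and activation, which includes Fabp4 and Fabp5, gave no call among 14 tested by limma. Its median log2FC was -0.10, and -0.011 over the 12 genes that are not members. An unadjusted p under 0.05 was reached by 4 genes, and DESeq2 called 3 of them. Slc27a1, a fatty acid transporter, had 1448 and 978 in EpiKO and 2602 and 2477 in WT (log2FC -1.09, SE 0.205, adjusted p = 0.0935 by limma). Acsl1, which activates long-chain fatty acids, had 889 and 882 in EpiKO and 1513 and 1417 in WT (log2FC -0.72, SE 0.103, adjusted p = 0.0567 by limma). The groups did not overlap in either gene. The related Acsbg1 had the opposite sign, at 182 and 220 in EpiKO and 119 and 89.9 in WT, and Acsl6 was almost without reads in WT. Acsl6 thus passed the filter only through EpiKO, at 11.8 and 52.0, and it is among the 4 and the 3.

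Plin2 encodes perilipin 2 and lies on chromosome 4 from 86648386 to 86670060 on the minus strand. It had 6219 and 4596 normalised read counts in EpiKO and 6644 and 5117 in WT, and the groups overlapped. The log2FC was -0.13 (SE 0.209, adjusted p = 0.846 by limma), and turned to 0.093 without EpiKO replicate 2 and 0.063 without WT replicate 1. Of 22 tested lipid droplet genes none was called by limma, edgeR or DESeq2, 4 had an unadjusted p under 0.05, and the median log2FC was -0.065. Pnpla2, the triglyceride lipase of droplets, had a log2FC of -0.40 (SE 0.157), Mgll, monoglyceride lipase, one of 1.22 (SE 0.358), Soat1, which makes cholesteryl esters, one of 0.47 (SE 0.160), and Lpin1, a phosphatidate phosphatase, one of 0.61 (SE 0.232). Fatty acid oxidation genes stayed close to the middle of all genes: none of 25 was called by any of the 3 tools, 2 had an unadjusted p under 0.05, and the median was -0.039. Within it Cpt1a, the carnitine transferase of mitochondrial import, had a log2FC of 0.42 (SE 0.155), and Acadvl, a dehydrogenase of very long chains, one of -0.28 (SE 0.101). Acadm and Acaa2, of the same list, had log2FC values of -0.27 (SE 0.142) and -0.37 (SE 0.187).

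Apoe was the most abundant member and varied within both groups. The gene lies on chromosome 7 from 19696109 to 19699188, and stood at 157810 and 350618 normalised read counts in EpiKO and at 285150 and 169481 in WT. The groups overlapped, with a log2FC of 0.098 (SE 0.467, adjusted p = 0.950 by limma) that turned to -0.51 under quantile normalization, -0.48 without EpiKO replicate 2 and -0.28 without WT replicate 2. Of 14 tested apolipoprotein and cholesterol efflux genes limma called Pltp alone, lower, DESeq2 also called Apoc2 higher, and the median log2FC was -0.13. The lysosomal lipase gene Lipa was at 3432 and 3596 in EpiKO and at 2703 and 2913 in WT (log2FC 0.32, SE 0.109), and Mylip, a ubiquitin ligase, and Apod overlapped between the groups. The cholesterol pump genes Abca1 and Abcg1, LXR targets picked with their values known, also overlapped, with log2FC values of -0.025 (SE 0.198) and 0.28 (SE 0.348).

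Nr1h3, on chromosome 2 from 91184061 to 91202834 on the minus strand, encodes LXR alpha, the oxysterol receptor that drives cholesterol efflux. It had 191 and 198 normalised read counts in EpiKO and 427 and 346 in WT. The EpiKO libraries lay close together and below both WT libraries, at means of 194 ± 4.93 in EpiKO and 386 ± 56.7 in WT (SD, n = 2 each), 1.99 times lower in EpiKO. The log2FC was -0.98 (SE 0.166, adjusted p = 0.0754 by limma and 0.00338 by DESeq2), and stayed between -1.13 and -0.83 with any 1 library left out, where the adjusted p by limma was 0.177 to 0.277. Nr1h3 shares exon sequence with Gm13783, a non-coding gene on the same strand. Its relative Nr1h2, LXR beta, picked with its values known, overlapped between the groups at 1604 and 1719 in EpiKO and 1625 and 1528 in WT.

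Pparg, on chromosome 6 from 115360951 to 115490399, encodes the fatty acid receptor PPARG. It was at 163 and 28.4 normalised read counts in EpiKO and at 77.7 and 80.7 in WT. The EpiKO libraries differed by 5.73 times and lay on either side of the WT libraries, so no direction could be read: the log2FC was -0.21 (SE 0.822) by limma, 0.27 (SE 0.756) by DESeq2, -1.45 without EpiKO replicate 1 and 1.03 without EpiKO replicate 2. Of 15 tested nuclear receptors and partners none was called by limma or edgeR, and the median was 0.065. An unadjusted p under 0.05 was reached by 4 and DESeq2 called 3, with the member Nr1h3 among both. Ppargc1b, a coactivator of lipid metabolism, was at 112 and 97.3 in EpiKO and at 239 and 274 in WT (log2FC -1.28, SE 0.189, adjusted p = 0.0602 by limma). Mlxipl, the carbohydrate sensor ChREBP, was at 42.0 and 49.1 in EpiKO and at 9.27 and 6.72 in WT (log2FC 2.38, SE 0.418, adjusted p = 0.0809 by limma). Both WT values of Mlxipl are under the filter of 10, so it was tested only through EpiKO. It is among the 4 and the 3. Rxra, the partner of both receptors, and Srebf2, the regulator of sterol synthesis, had log2FC values of 0.45 (SE 0.111) and 0.32 (SE 0.131).

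Textbook targets of these receptors did not share one direction. Of 17 tested PPAR targets, which include 5 members, none was called by limma or edgeR. An unadjusted p under 0.05 was reached by 8, against 15.6% of all tested genes. DESeq2 called 2 higher and 5 lower, against 3.73% and 3.12% of all tested genes. The members Lpl, Cd36 and Nr1h3 are among the 8 and among the 5 lower. The median log2FC was -0.15 over all 17 and 0.15 over the 12 that are not members, so its sign depends on the members. Of 17 tested LXR targets limma called 1 higher and 1 lower, and 7 had an unadjusted p under 0.05. DESeq2 called 3 higher and 3 lower. Members among the 7 and among the DESeq2 calls were Lpl and Nr1h3, lower, and Apoc2, higher. The median over the 17 was 0.099, and that of the 13 that are not members 0.24. The gene limma called lower was Pltp. The one it called higher was Scd2, a stearoyl-CoA desaturase, at 7302 and 6608 in EpiKO and 3534 and 3029 in WT. It rose by 1.09 log2 units (SE 0.132), at an adjusted p of 0.0471 by limma. The adjusted p was 0.0501 by edgeR, and between 0.1002 and 0.231 by limma with any 1 library left out. Scd1, the related desaturase, was at 377 and 418 in EpiKO and 256 and 123 in WT, and Fasn, fatty acid synthase, had a log2FC of 0.53 (SE 0.118).

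Cd9, on chromosome 6 from 125460266 to 125494791 on the minus strand, encodes a tetraspanin of the cell surface. It had 6386 and 3939 normalised read counts in EpiKO and 4591 and 3319 in WT, with overlap. The log2FC was 0.36 (SE 0.286, adjusted p = 0.637 by limma), and it kept a positive sign with any 1 library left out, between 0.013 and 0.71. An exon of Gm26728 lies on the other strand of Cd9, and reads of the pair cannot be told apart unless the counting used strand. Of 22 tested tetraspanins and partners none was called by limma or edgeR, 4 had an unadjusted p under 0.05, DESeq2 called 1 in each direction, and the median was 0.12. Tspan9 had 317 and 391 in EpiKO and 167 and 97.5 in WT (log2FC 1.46, SE 0.300, adjusted p = 0.112 by limma), and Cd82 had 1010 and 1398 in EpiKO and 2297 and 1792 in WT (log2FC -0.77, SE 0.211). Cd37 and Tspan17 had log2FC values of -0.69 (SE 0.219) and -0.86 (SE 0.320).

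**Figure D2:**
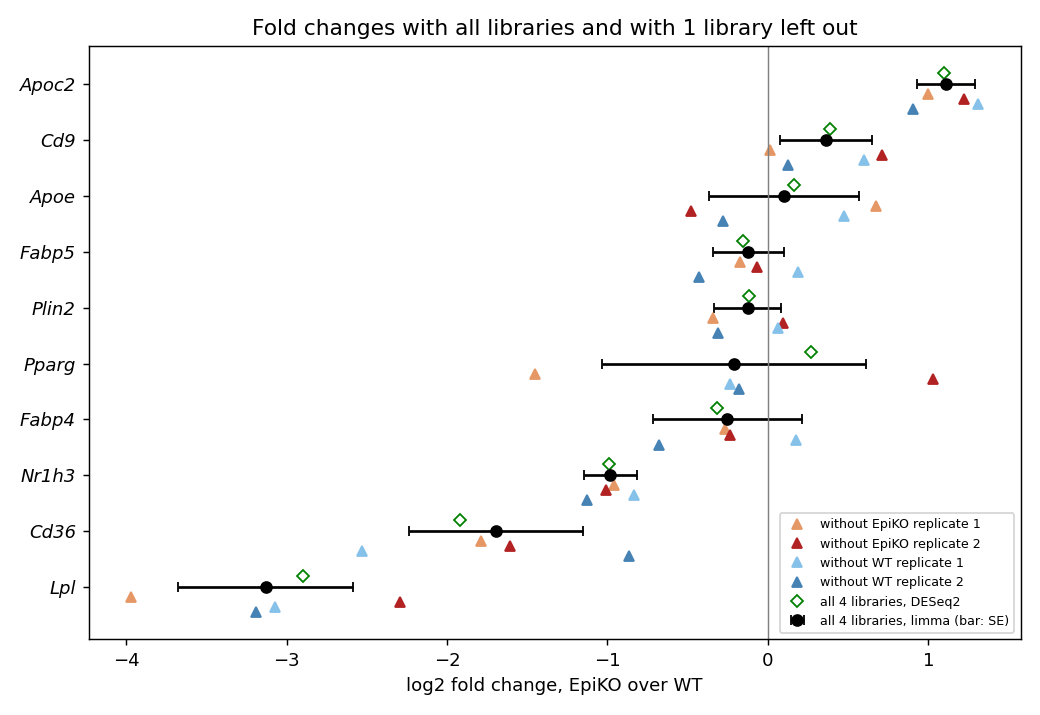
Log2FC of EpiKO over WT for each gene: black circles with SE bars use all 4 libraries (limma), open diamonds are DESeq2, and triangles leave out 1 library. Lpl stayed between -3.97 and -2.29, Cd36 between -2.53 and -0.87, Nr1h3 between -1.13 and -0.83 and Apoc2 between 0.90 and 1.31, while Pparg spread from -1.45 to 1.03.

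Per transcript length, the levels of the members spanned a wide range. In RPKM (reads divided by transcript length and by depth), with the length of the longest principal coding transcript of GENCODE M21, Apoe averaged 9341 over the 4 libraries, Cd9 202, Plin2 163, Fabp5 68.8, Apoc2 46.4, Lpl 19.3, Cd36 14.4, Nr1h3 8.13, Pparg 2.68 and Fabp4 1.31. Apoe lay above every other member in every library. Cd9 and Plin2, Fabp5 and Apoc2, Apoc2 and Lpl, Lpl and Cd36, Cd36 and Nr1h3, and Pparg and Fabp4 are neighbours in this order whose ranges overlapped. Lpl, at 6.75 and 2.15 in EpiKO and at 35.1 and 33.2 in WT on this scale, was below its cofactor Apoc2 in both EpiKO libraries and above it in both WT libraries, where Apoc2 was at 67.0 and 58.9 in EpiKO and at 33.7 and 26.1 in WT. The margin in WT replicate 1 was small, and on this scale it depends on the transcript lengths used, 4115 bases for Lpl and 727 for Apoc2.

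**Figure D3:**
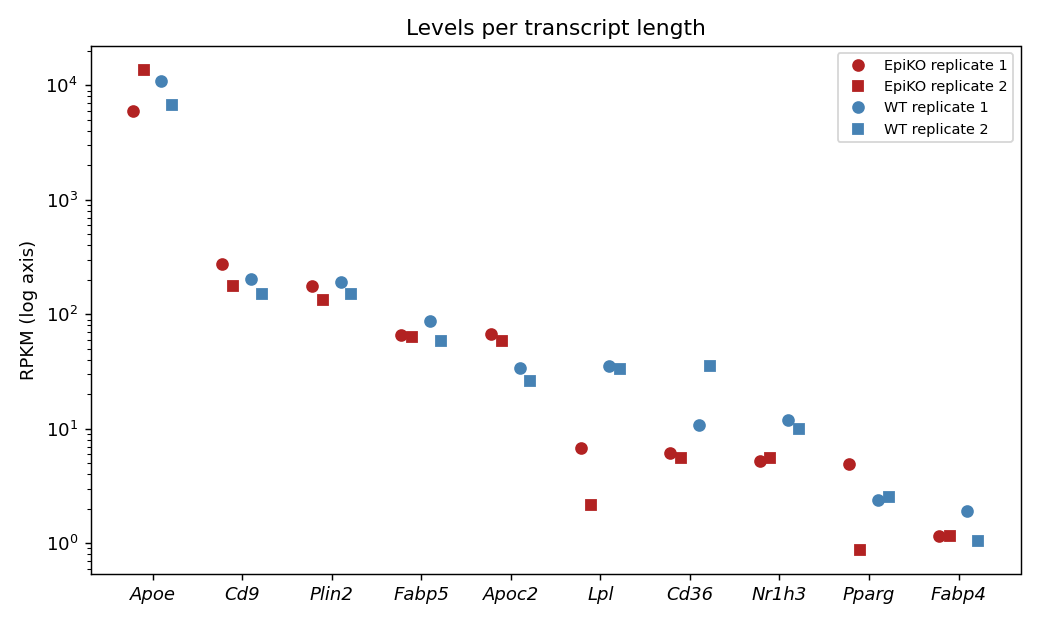
Level of each gene in RPKM on a log axis, ordered by the mean over the 4 libraries, with EpiKO libraries left of WT libraries within each gene. Lpl was at 6.75 and 2.15 in EpiKO and at 35.1 and 33.2 in WT, while Plin2 and Fabp5 lay within narrow ranges.

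Genes of the lipid-associated macrophage state, a list that shares 7 genes with the members, gave 1 call by limma among 20 tested. DESeq2 called 3 higher and 3 lower, with the members Lpl and Cd36 among the lower. Atp6v0d2, a lysosomal proton pump subunit, had 324 and 178 in EpiKO and 2694 and 2443 in WT. It fell by 3.41 log2 units (SE 0.296), at an adjusted p by limma of 0.0336, and of 0.0308 to 0.189 with any 1 library left out. Spp1, osteopontin, had the opposite sign, at 158860 and 111359 in EpiKO and 47900 and 46436 in WT (log2FC 1.496, at an adjusted p of 0.0567 by limma), as did Gpnmb, a glycoprotein of the same cell state, at means of 289 ± 146 in EpiKO and 89.4 ± 15.0 in WT (SD, n = 2 each). Ctsd, the lysosomal protease cathepsin D, had a log2FC of 0.57 (SE 0.133). Over all 11 wider lists, with the members left out, 140 genes were tested, and the median log2FC was 0.058. Of these limma called 1 higher and 2 lower, against 0.417% and 0.53% of all tested genes. DESeq2 called 10 higher and 6 lower, against 3.73% and 3.12% of all tested genes. Among the higher, Acsl6 and Mlxipl had passed the filter only through EpiKO.

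**Figure D4:**
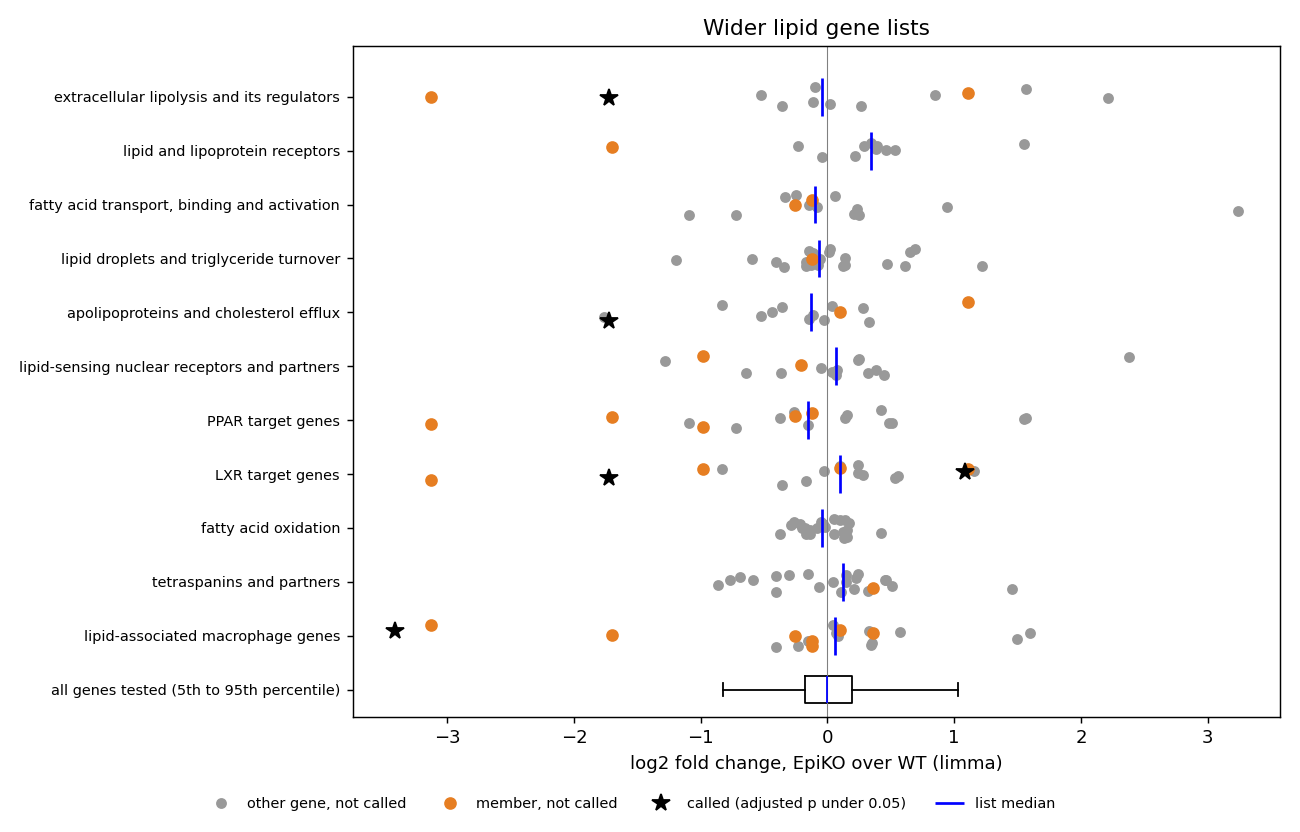
Log2FC (EpiKO over WT, limma) of the tested genes of each wider list, with members in orange, called genes as stars, list medians as blue lines, and a box for all genes tested with whiskers at the 5th and 95th percentiles. List medians lay between -0.15 and 0.34, and the called genes were Pltp, which stands in 3 lists, Scd2 and Atp6v0d2.

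The genes whose pattern over the 4 libraries was nearest to Lpl, by Euclidean distance of centred log2 values among 12453 other genes, were Mir27b, Epdr1, Clec14a, Cadps and Siglec15, at distances of 0.346 to 0.478 against a median of 3.36. They were picked for small distances, so the gap to the median follows from the choice. All but Siglec15 had at most 23.5 normalised read counts in any library. In each of them, Siglec15 included, both EpiKO values were under the filter of 10. They were tested only through WT, which fixed a pattern of lower EpiKO values in advance. Siglec15, a sialic acid binding lectin, was at 9.69 and 3.78 in EpiKO and 71.9 and 48.8 in WT. Nearest to Cd36 were Hdc, D10Bwg1379e, Prtg, Sulf1 and Nav2, at 0.193 to 0.651 against a median of 2.08. These too were picked for small distances. Prtg and Sulf1 also passed the filter only through WT, with EpiKO values of 4.73 to 6.46. Hdc, histidine decarboxylase, was at 28.0 and 23.6 in EpiKO and at 40.6 and 142 in WT, high in the same WT library as Cd36.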

How the data were processed

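RNA-seq values came from 2 EpiKO and 2 WT libraries, made by poly-A selection and an Illumina TruSeq kit per the labels' protocols. The submitters' processing notes list featureCounts 1.5.0-p3, bcl2fastq 2.17, DESeq2, STAR 2.5.2b and build mm10, with gene annotation and strand setting not given in the sources used here. In the deposited table the signal is a read count per gene divided, by the authors, by a size factor of its library: within 1e-06 reads, 100% of values were whole multiples of 1 read, which stood for 0.841 to 1.16.

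Values were tested as log2(value + 1) with limma 3.58.1 in R 4.3.3 (trend and robust moderation, two-sided) for genes with at least 10 in at least 2 libraries, so fold changes of low genes are understated. edgeR 4.0.16 (quasi-likelihood) and DESeq2 1.42.0 ran on the recovered reads, calling 120 and 854 genes, and the test was tried on simulated data. An exact permutation of 2 against 2 libraries cannot give a p below 0.333.

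The members and the 11 wider and 10 marker lists were chosen with earlier results of these data known. Of 322 list entries 6 were found under an older symbol and 1 was not found. Named are the members, up to 4 other genes with the smallest p per lipid list, the 3 most abundant markers per cell type where shown, and the 5 genes nearest to Lpl and to Cd36; any other gene named was chosen after its values were seen. One gene that this rule names is not reported here. Alternatives were other pseudocounts, filters, scalings, tools and variance models, each library left out, and a threshold of 0.1 added after the data were seen. Coordinates and lengths are from GENCODE M21.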

Additional observations from a re-analysis of the deposited data

How the results depend on the processing

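No paired analysis was possible because the labels give no replicate numbers. Over all genes limma made 118 calls, against 854 by DESeq2, 38 by limma without trend or robust moderation, 428 at a threshold of 0.1, and 0 to 4 with 1 library left out. No member was called, against 4 by DESeq2, 3 at a threshold of 0.1 (Lpl, Apoc2 and Nr1h3) and 0 to 1 with a library left out, where Lpl passed without EpiKO replicate 1. Of the wider lists 3 genes were called, against 4 with no filter or under quantile normalization, 2 by edgeR, 16 by DESeq2, 0 without trend, 8 at a threshold of 0.1, and 0 to 1 with a library left out. Lpl, Cd36, Apoc2, Nr1h3 and Cd9 kept their sign under every alternative run. With 1 library left out, the log2 fold change ranged from -0.681 to 0.177 for Fabp4, -0.432 to 0.189 for Fabp5, -0.343 to 0.0931 for Plin2, -0.478 to 0.673 for Apoe and -1.45 to 1.03 for Pparg. Under quantile normalization Apoe had -0.511, and by edgeR and DESeq2 Pparg had 0.26 and 0.267. The cause was not tested. Fabp4, under the filter at 50, was not tested. Equal library totals, the scaling that moved the median of all genes most, put it at -0.0303. A group with 1 library left borrowed its spread from the other. Reads without molecular identifiers carry more than counting error, and Fabp4, with 18 to 27 reads per library, is the member that depth limits most.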
